A study of Mus musculus with 8 samples.

Results

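Immediate early genes are the genes that cells transcribe within minutes of a stimulus, before any new protein has to be made. The 10 examined here were Fos, Fosb, Jun, Junb, Egr1, Nr4a1, Npas4, Arc, Ier2 and Dusp1, taken by gene symbol from a table of 55291 genes. All 10 were in the table, and all 10 passed the filter on low counts that 19470 genes passed. RNA was sequenced from whole lumbar spinal cord of 8 male SOD1G93A mice, a model of amyotrophic lateral sclerosis that carries a mutant human SOD1 transgene. E1776, E5231, E5248 and E5568 carried SOD1G93A Agerfl/fl Cx3cr1Cre/+ and are called Ager-deleted, and E5386, E5642, E6578 and E6732 carried SOD1G93A Ager+/+ Cx3cr1Cre/+ and are called controls. All 8 mice therefore carried the SOD1 transgene and 1 copy of a tamoxifen-inducible Cre in the Cx3cr1 locus, and all were on the C57BL/6J background and received tamoxifen, given by the labels as 5 injections of 0.2 μg at 12 weeks of age. The labels give an age of 120 days, whereas the study's text places this tissue at the humane endpoint. Mice without the SOD1 transgene or without Cre were not analysed here, so no level without disease is given.

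In neurons, immediate early genes answer to synaptic input and calcium entry, and Npas4 and Arc are used as markers of recent neuronal activity. Fos, Jun, Egr1, Ier2 and Dusp1 also answer to growth factors, cytokines and stress in glia, vessels and muscle. Their transcription is driven mainly by CREB and by serum response factor with its partners, which MAP kinases activate. The RNAs are short-lived, so that their level at death can also carry a trace of anaesthesia and tissue handling. All 8 mice were anaesthetised with ketamine and xylazine before the cord was removed, and the time of day and the time from anaesthesia to freezing are not given in the sources used here. In RNA from whole cord, a change in the number of cells of a type and a change in RNA per cell cannot be told apart. The Cre used here is active in microglia and other Cx3cr1-expressing macrophages, while the RNA comes from all cells of the cord.

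The libraries held 31148047 to 40324897 counts, and the markers of neurons, astrocytes, oligodendrocytes and microglia all passed the filter in this cord tissue. Ager itself, the targeted gene, was at 0.889 to 1.51 CPM (counts scaled to library size with TMM factors) when deleted and 1.53 to 2.41 CPM in controls, without overlap (exact two-sided permutation test, p = 0.0286), though its adjusted p was 0.252 in the exact test of edgeR. Some control cords held RNA of other tissues. The summed CPM of 8 skeletal muscle markers was 881 in E5386 and 1272 in E5642 and 119 to 146 in the other 6 mice. In that list Acta1 was at 241 and 377 CPM in these mice and 1.27 to 5.81 CPM in the others, and Pygm, the gene with the highest mean, at 158 and 173 CPM and 100.5 to 139 CPM. Liver markers, 4 of 7 passing the filter, summed to 553 in E6732, 452 of it from Alb, and to 1.31 to 2.46 in the others. Markers of Schwann cells, which nerve roots carry, summed to 3.47 CPM in E5386 and to 200 to 744 CPM in the other 7 mice. Markers of meningeal fibroblasts summed to 70.0 CPM in E5386 and 382 to 486 CPM in the other 3 controls, against 160 to 325 CPM with Ager deleted. Erythroid markers summed to 131 CPM in E5386 and 282 to 427 CPM in the other 3 controls, against 72.5 to 278 CPM with Ager deleted. Because of the muscle RNA, the comparison of genotypes is also given without E5386 and E5642. That comparison keeps E6578 and E6732, with their meningeal and erythroid RNA.

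The promoters of 4 of these genes are shown because their RNAs form the results described next. Jun and Junb moved together across mice, Fos was highest in the same mouse as Arc, and Dusp1 had the largest difference between the genotypes. Each sequence is the 250 bases before the RefSeq transcription start on GRCm38.p6, printed 5′ to 3′ on the strand of the gene. Capitals mark the bases TGACG, the core of the cAMP response element (CRE) that CREB binds, and TATAAA, the TATA box. The windows are chr12:85473640-85473889 on the forward strand for Fos, and chr4:95052223-95052472, chr8:84978749-84978998 and chr17:26508473-26508722 on the reverse strand for Jun, Junb and Dusp1.
Fos: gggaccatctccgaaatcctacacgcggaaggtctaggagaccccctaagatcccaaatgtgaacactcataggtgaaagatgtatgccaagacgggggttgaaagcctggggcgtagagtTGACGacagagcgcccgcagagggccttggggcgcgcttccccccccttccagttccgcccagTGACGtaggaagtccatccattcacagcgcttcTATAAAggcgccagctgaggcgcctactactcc
Jun: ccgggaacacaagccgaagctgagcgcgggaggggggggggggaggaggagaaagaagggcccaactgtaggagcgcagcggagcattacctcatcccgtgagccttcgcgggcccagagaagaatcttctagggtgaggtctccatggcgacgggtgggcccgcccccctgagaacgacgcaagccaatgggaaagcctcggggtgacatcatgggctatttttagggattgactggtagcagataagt
Junb: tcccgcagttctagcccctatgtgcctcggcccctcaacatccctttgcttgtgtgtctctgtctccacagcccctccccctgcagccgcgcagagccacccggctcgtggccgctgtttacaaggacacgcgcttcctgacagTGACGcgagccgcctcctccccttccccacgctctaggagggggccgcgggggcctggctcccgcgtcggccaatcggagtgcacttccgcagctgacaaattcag
Dusp1: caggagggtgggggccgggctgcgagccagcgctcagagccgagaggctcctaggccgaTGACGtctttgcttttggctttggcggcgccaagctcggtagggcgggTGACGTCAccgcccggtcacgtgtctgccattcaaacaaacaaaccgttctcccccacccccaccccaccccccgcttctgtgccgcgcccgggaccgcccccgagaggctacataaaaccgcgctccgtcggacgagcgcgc
RefSeq promoters were matched for 7 of the 10 genes, these 4 with Fosb, Nr4a1 and Npas4. The 5 letters TGACG, searched on both strands, stood in 6 of the 7 windows, all but that of Jun, and in 17.8% of 32851 promoters of the same length. The whole palindrome TGACGTCA, which contains TGACG on each strand, was in 1 of the 7, the Dusp1 promoter, and in 1.55% of all promoters. TATAAA was in the Fos window only, and in 12.4% of all promoters. The serum response factor site, the CArG box, had no match in any of the 7 windows and was in 1.47% of all promoters, and TGANTCA, the AP-1 site, had none either and was in 6.75%. Bases farther upstream than these 250, and the promoters of Egr1, Arc and Ier2, were not searched. A site absent from a window can therefore stand elsewhere. Only the exact letters given were counted, so variant forms, such as the tgacatca in the Jun window, were not. These matches describe the letters of the windows and were not tested against the RNA levels.

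The genotypes did not separate any of the 10 genes. In that exact test, the kind the study used, 0 of the 10 had an adjusted p under 0.05, where 0.0719% of all genes tested did. At an unadjusted p under 0.05 there were 2 of 10, Egr1 and Dusp1, against 4.26% of all genes, and both were lower in Ager-deleted mice, a direction in which 3.06% of all genes passed. For 0 of the 10 genes did the 4 mice of one genotype lie wholly above or below the other 4, as they did for 3.88% of all genes. The study's text does not say how dispersions were estimated, and with tagwise dispersions drawn toward a common value instead of a trend the exact test also called 0 of 10, where 0.401% of all genes were called. That share is 78 genes, against 14 in the main test. The study's text also counts 78 differentially expressed genes, and whether they are the same genes was not tested. Other tests made the same calls. The quasi-likelihood test of edgeR also called 0 of 10 at an adjusted p under 0.05 (0.00514% of all genes) and 2 of 10 at an unadjusted one (6.71% of all genes). DESeq2 called 0 of 10 (0.129% of all genes), with 2 of 10 at an unadjusted p under 0.05 (6.54% of all genes). Egr1 and Dusp1 were the 2 genes in both. The median log2 fold change of Ager-deleted mice over controls was -0.06 over the 10 genes and 0.0069 over all genes, with 7 of the 10 below 0. When only library size was used for scaling, 6 of 10 were below 0, and without E5386 and E5642, the controls with muscle RNA, 5 of 10 were. Egr1 then had a log2 fold change of -0.14 and Dusp1 one of -0.21, with p = 0.292 and 0.209 in the exact test, so that 0 of 10 had an unadjusted p under 0.05.

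**Figure D1:**
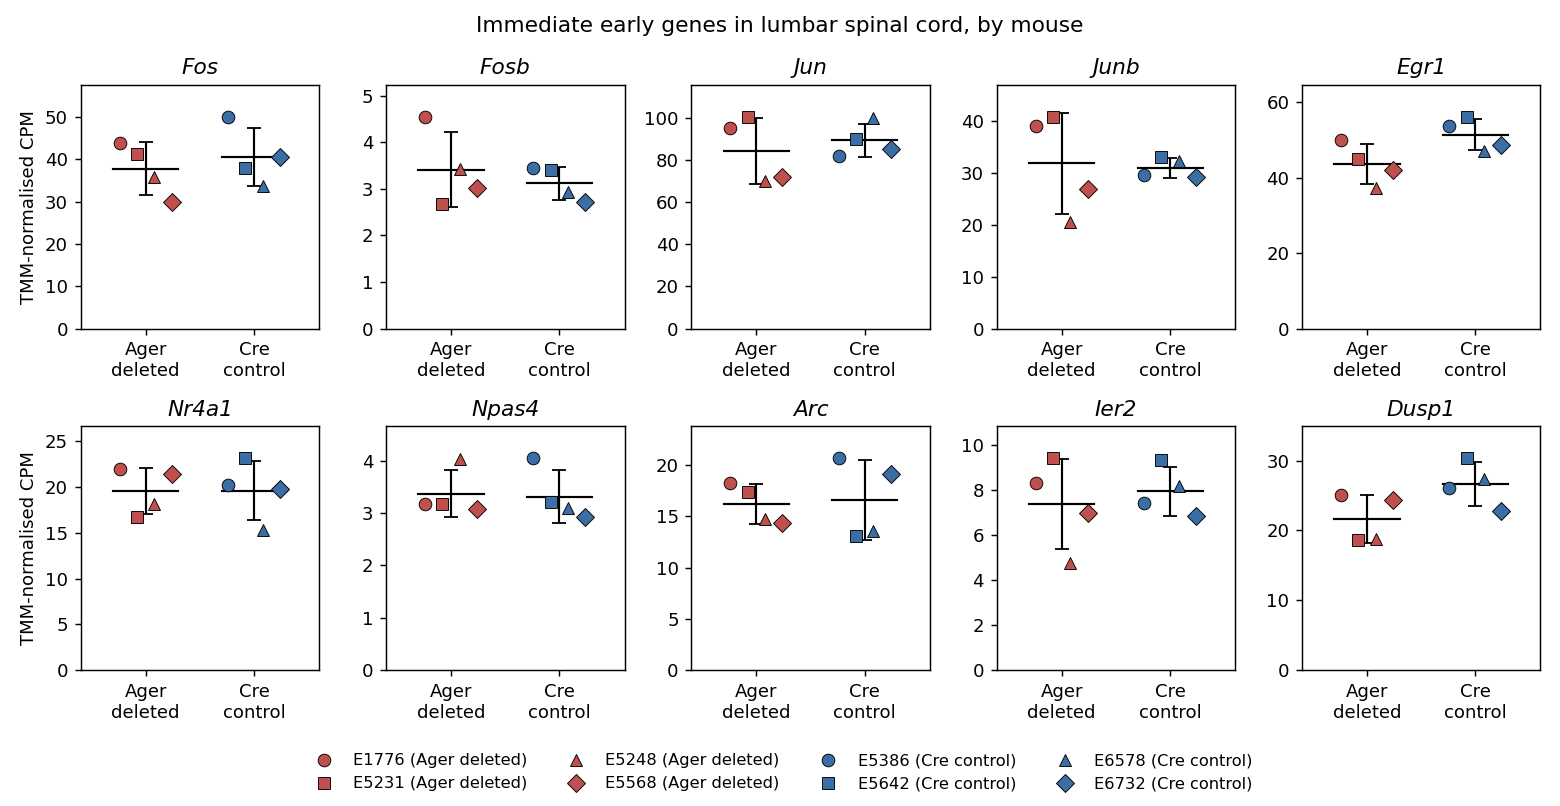
Level in TMM-normalised CPM of each immediate early gene, 1 panel per gene, in 4 Ager-deleted mice (red) and 4 Cre-expressing controls (blue). Each symbol is 1 mouse, the horizontal line is the mean and the bar is the SD. The genotypes overlap in all 10 panels, and the Ager-deleted mice E1776 and E5231 lie above E5248 and E5568 for Fos, Jun, Junb, Egr1, Arc and Ier2.

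Fos and Fosb encode the Fos subunits of the transcription factor AP-1, which bind DNA only as dimers with a Jun protein. Fos (chromosome 12, 85473890 to 85477273, forward strand) reached 44.0, 41.4, 35.8 and 30.0 CPM in E1776, E5231, E5248 and E5568, whose Ager was deleted, and 50.1, 37.9, 33.7 and 40.6 CPM in E5386, E5642, E6578 and E6732, the controls. The highest of the 8 was the control E5386 and the lowest the Ager-deleted E5568, and the other 6 mice were mixed. The group means were 37.8 ± 6.24 CPM (SD, n = 4) with Ager deleted and 40.6 ± 6.96 CPM (SD, n = 4) without the deletion. The log2 fold change was -0.10 (standard error 0.14, 95% interval -0.42 to 0.21). Fosb (chromosome 7, 19302696 to 19310051, reverse strand) was much lower, at 4.55, 2.67, 3.41 and 3.02 CPM in Ager-deleted mice and 3.45, 3.40, 2.93 and 2.72 CPM in controls, in the same order of mice. The Ager-deleted mice E1776 and E5231 held the highest and the lowest value, so the controls lay within their range. Its log2 fold change was 0.13 (standard error 0.18, 95% interval -0.27 to 0.53), from 90 to 179 counts per mouse.

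Jun and Junb encode Jun subunits of AP-1, which pair with each other or with Fos proteins. Jun (chromosome 4, 95049034 to 95052222, reverse strand) had the highest count of the 10 genes, at 94.9, 100.5, 69.9 and 72.0 CPM in E1776, E5231, E5248 and E5568, against 81.9, 89.9, 99.9 and 85.2 CPM in E5386, E5642, E6578 and E6732. The Ager-deleted mice fell into a high and a low pair, on either side of all but 1 control. The log2 fold change was -0.08 (standard error 0.12, 95% interval -0.35 to 0.19). Junb (chromosome 8, 84974484 to 84978718, reverse strand) showed the same high and low pair, at 39.1, 40.8, 20.5 and 26.8 CPM in Ager-deleted mice, whereas the controls were close together at 29.5, 33.0, 32.2 and 29.2 CPM. All 4 controls lay between the pairs. The means were almost equal, 31.8 ± 9.79 CPM (SD, n = 4) and 31.0 ± 1.91 CPM (SD, n = 4), with a log2 fold change of 0.04 (standard error 0.19, 95% interval -0.38 to 0.45). Jun overlaps the antisense gene Junos, at 1.40 to 2.31 CPM, and the end of Junb overlaps Prdx2 on the other strand, at 167 to 208 CPM. The strand setting of the counting is not given in the sources used here, so reads in these overlaps could have been counted for either gene or for neither.

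Egr1 encodes a zinc finger transcription factor, and Nr4a1 an orphan nuclear receptor (Nur77). Egr1 (chromosome 18, 34859823 to 34864984, forward strand) stood at 50.04, 45.0, 37.2 and 41.9 CPM in E1776, E5231, E5248 and E5568, against 53.6, 56.1, 47.1 and 48.8 CPM in E5386, E5642, E6578 and E6732. The controls E5386 and E5642 were above all Ager-deleted mice, and E1776 lay among the controls. The means of 43.6 ± 5.37 CPM (SD, n = 4) and 51.4 ± 4.19 CPM (SD, n = 4) gave a log2 fold change of -0.24 (standard error 0.095, 95% interval -0.45 to -0.03, p = 0.0381 and adjusted p = 1 in the exact test). In an exact two-sided permutation test over the 70 ways to assign the mice, p was 0.0857. This test cannot go below 0.0286 with 4 mice against 4. Nr4a1 (chromosome 15, 101254269 to 101274795, forward strand) was at 21.9, 16.8, 18.1 and 21.5 CPM in Ager-deleted mice and 20.3, 23.2, 15.3 and 19.7 CPM in controls. Both the highest and the lowest value were in controls, and the log2 fold change was -0.0043 (standard error 0.13, 95% interval -0.30 to 0.29).

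Npas4 and Arc are the members most closely tied to neurons: Npas4 is a transcription factor induced by calcium entry, and Arc a synaptic protein that regulates the removal of AMPA receptors. Npas4 (chromosome 19, 4984355 to 4990316, reverse strand) was at 3.17, 3.18, 4.04 and 3.08 CPM in E1776, E5231, E5248 and E5568, against 4.05, 3.21, 3.09 and 2.92 CPM in E5386, E5642, E6578 and E6732. One mouse of each genotype, E5248 and E5386, stood above the other 6, which lay between 2.92 and 3.21 CPM. The log2 fold change was 0.02 (standard error 0.15, 95% interval -0.31 to 0.36). Arc (chromosome 15, 74669083 to 74672570, reverse strand) was at 18.3, 17.4, 14.7 and 14.3 CPM in Ager-deleted mice and at 20.6, 13.0, 13.6 and 19.1 CPM in controls. The mice fell into 4 at or above 17.4 CPM and 4 at or below 14.7 CPM, 2 of each genotype in either. The controls held both the highest and the lowest values, with means of 16.2 ± 1.95 CPM (SD, n = 4) where Ager was deleted and 16.6 ± 3.86 CPM (SD, n = 4) where it was not, and a log2 fold change of -0.04 (standard error 0.16, 95% interval -0.39 to 0.31).

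Ier2 encodes a nuclear protein of the immediate early response, and Dusp1 a phosphatase that switches MAP kinases off again and so limits the response. Ier2 (chromosome 8, 84661331 to 84662852, reverse strand) was at 8.31, 9.41, 4.77 and 6.98 CPM in E1776, E5231, E5248 and E5568, against 7.41, 9.32, 8.16 and 6.83 CPM in E5386, E5642, E6578 and E6732. E5248 was the lowest of the 8, and the controls lay within the range of the Ager-deleted mice. The log2 fold change of Ier2 was -0.11 (standard error 0.19, 95% interval -0.53 to 0.32). Dusp1 (chromosome 17, 26505590 to 26562128, reverse strand) was at 25.02, 18.6, 18.8 and 24.3 CPM in Ager-deleted mice and at 26.1, 30.4, 27.4 and 22.7 CPM in controls. All controls but E6732 were above all Ager-deleted mice. The means of 21.7 ± 3.47 CPM (SD, n = 4) and 26.7 ± 3.15 CPM (SD, n = 4) gave a log2 fold change of -0.30 (standard error 0.12, 95% interval -0.57 to -0.02, p = 0.0370 and adjusted p = 1 in the exact test). The exact two-sided permutation test gave p = 0.114. Dusp1 lies 8.04 Mb from Ager on the same chromosome, and its longest annotated transcripts overlap the start of Ergic1 on the other strand, which was at 73.4 to 88.6 CPM.

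**Figure D2:**
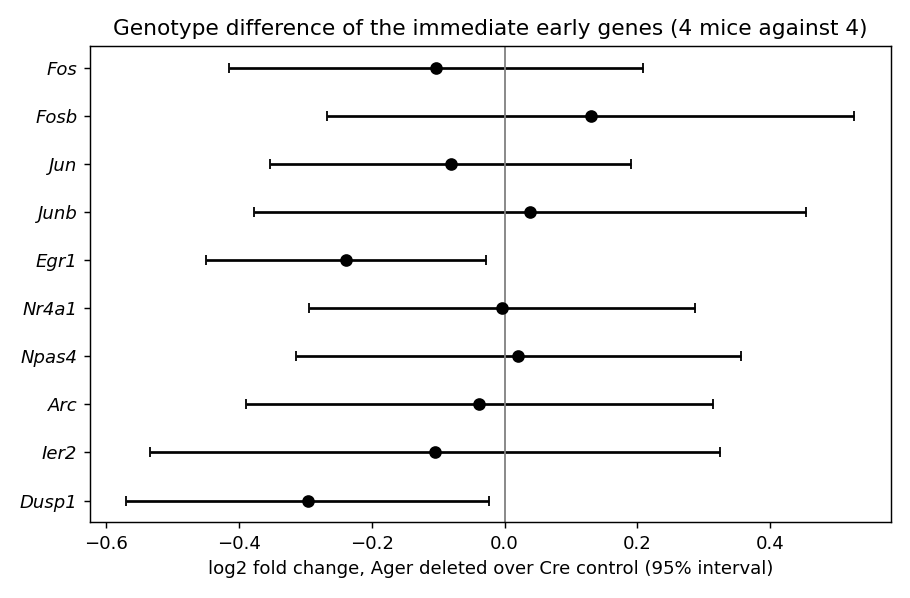
Log2 fold change of each immediate early gene, Ager-deleted mice over Cre-expressing controls (4 mice against 4), from edgeR's quasi-likelihood fit. Points are estimates and bars are 95% intervals, which for Egr1 (-0.45 to -0.03) and Dusp1 (-0.57 to -0.02) end just below 0 and for the other 8 genes include 0.

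The intervals set what these 8 mice can show. In percent of the control level, the interval ran from -25.02 to 15.6 for Fos, from -23.7 to 24.3 for Arc and from -19.6 to 28.0 for Npas4. Differences of that size therefore remained possible for these genes in either direction.

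Counts per kilobase of exon allow the genes to be compared with each other. In CPM per kilobase, the mean level over the 8 mice was highest for Jun at 27.2, then Fos at 16.7, Junb at 13.6 and Egr1 at 10.6. Dusp1 followed at 7.30, Nr4a1 at 5.59, Arc at 5.36 and Ier2 at 5.03, and Npas4 at 0.808 and Fosb at 0.523 were far below. Jun, at 21.9 to 31.5 CPM per kilobase, did not overlap with Fos at 12.7 to 21.3, and neither did Ier2, whose lowest mouse had 3.13, overlap with Npas4, whose highest had 0.979. Fos, Junb (8.89 to 17.7) and Egr1 (8.31 to 12.5) overlapped in range with their neighbours in that order, as did Dusp1, Nr4a1, Arc and Ier2 with theirs. Npas4 and Arc thus stood in the lower part of the order, and Jun and Fos at its top. Lengths are unions of all annotated exons, which for Fosb (6.24 kb) is long against the other genes and lowers its value.

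The mice differed in these genes far more than counting error allows, and more than in most genes of a like level. Junb varied most, with a spread (coefficient of variation within a genotype) of 22.5% against a counting error of 3.03%, and its highest mouse was 1.99-fold above its lowest. Its SD on the log2(CPM + 1) scale was larger than that of 97.2% of the genes whose mean CPM lay between 0.5 and 2 times its own. The same percentile was 92.8 for Fos, 90.5 for Jun, 89.7 for Arc, 88.4 for Ier2, 85.6 for Nr4a1, 84.3 for Dusp1 and 75.9 for Egr1. Fosb and Npas4, the genes with the fewest counts, ranked at 60.9 and 35.1. Npas4 varied by 14.2% against a counting error of 9.16% from its 95 to 148 counts per mouse, the closest of the 10 genes to its counting error. These percentiles describe the 8 mice and carry no test.

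The mice did not keep 1 order across the genes. E1776 was above its genotype mean in 9 of the 10 genes, all but Npas4, by a mean of 0.20 on the log2(CPM + 1) scale, and E5248 was below in 8 of 10, all but Npas4 and Fosb, by a mean deviation of -0.18. E5231 showed the split most clearly. It was the highest of all 8 mice in Jun, Junb and Ier2 and the lowest in Fosb and Dusp1. Among controls, E5386 was the highest of all mice in Fos, Npas4 and Arc, whereas E5642 was the highest in Egr1, Nr4a1 and Dusp1 and the lowest in Arc. E5386 and E5642 were the controls with muscle RNA, and their part in these values was not tested. The highest value of every gene but Fosb was in E5231, E5386 or E5642, each for a different set of 3 genes.

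**Figure D3:**
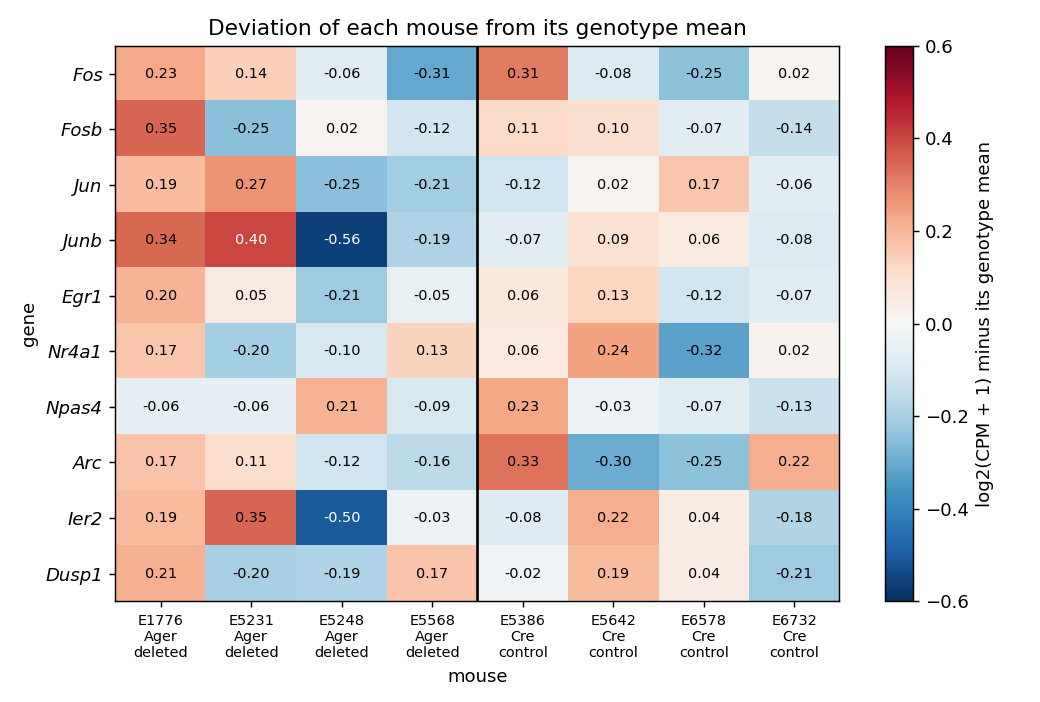
Deviation of each mouse (columns) from the mean of its genotype for each immediate early gene (rows), in log2(CPM + 1). Red is above and blue below the genotype mean, and the black line separates the genotypes. E1776 is red in 9 of 10 rows, and E5231 is red for Jun, Junb and Ier2 but blue for Fosb, Nr4a1 and Dusp1.

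Junb went with Ier2 and with Jun across mice, the 2 of 45 pairs that passed adjustment by Pearson's r, while 0 passed by rho. Of the 45 pairs of the 10 genes, 34 had a Pearson r above 0, with a median of 0.24 and a range from -0.52 to 0.92. For Junb and Ier2, r was 0.92 over 8 mice (exact permutation test, p = 0.00208, adjusted p over 45 pairs 0.0469) and Spearman's rho was 0.95 (exact permutation test, p = 0.00114, adjusted p = 0.0513). For Jun and Junb, r was 0.89 (exact permutation test, p = 0.00169, adjusted p = 0.0469) and rho 0.90 (exact permutation test, p = 0.00456, adjusted p = 0.103). The third pair of this trio, Jun and Ier2, had r = 0.83 and rho = 0.83, with adjusted p-values of 0.0893 and 0.231 in the exact permutation test. With each value centred on its genotype mean, r was 0.94 for Junb and Ier2 and 0.91 for Jun and Junb. E5248 was lowest in all 3 genes, and without it r was 0.80 for Junb and Ier2 and 0.83 for Jun and Junb. Without the 2 mice farthest from the median of the first gene named, r was 0.70 and 0.76.

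Fos and Arc had r = 0.82 and rho = 0.76 over 8 mice, with p-values of 0.0121 and 0.0368 in the exact permutation test that did not pass adjustment (0.136 and 0.414). Without the 2 mice farthest from the median of Fos, r was 0.81, and with any 1 mouse left out it was between 0.72 and 0.92. The same 4 mice, E5386, E6732, E1776 and E5231, were the highest in Fos and in Arc. Egr1 and Dusp1, the pair with the lowest p between genotypes, had r = 0.75 (exact permutation test, p = 0.0308, adjusted p = 0.277), which fell to 0.55 with values centred on the genotypes and to 0.38 without the 2 mice farthest from the median of Egr1. Npas4 shared little with the trio. Its r was -0.52 with Ier2 and with Junb, and close to 0 in both without E5248 (-0.0031 and -0.086).

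**Figure D4:**
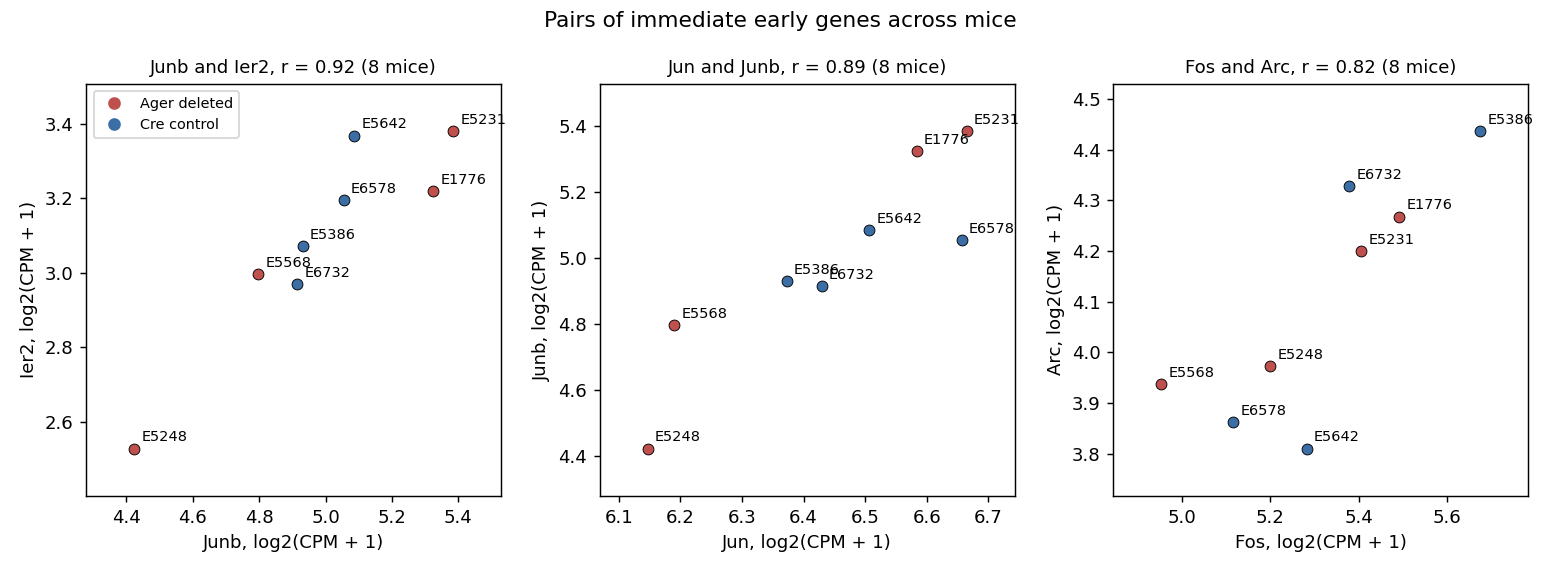
Pairs of immediate early genes across the 8 mice, in log2(CPM + 1) on both axes, for Junb and Ier2 (r = 0.92), Jun and Junb (r = 0.89), and Fos and Arc (r = 0.82). Each point is a mouse, red for Ager-deleted and blue for Cre-expressing controls. E5248 is lowest in the first 2 panels, and E5386 is highest in the third.

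Markers of cell types and of handling moved with some of these genes, and their part in the results was not tested. Between the 10 genes and mean z-scores of 8 lists (glucocorticoid response, heat shock, clock, neuron, astrocyte, microglia, endothelium and Schwann cell), 0 of 80 relations had an adjusted p under 0.05 in the exact permutation test, by r or by rho, and 13 had an unadjusted one under 0.05 by r. Junb, Jun and Ier2 went with the markers of 3 cell types, microglia, endothelium and astrocytes. For the 6 microglial markers r was 0.89 (rho = 0.83, p = 0.00469 and 0.0154, adjusted p = 0.112 and 0.154, exact permutation test) for Junb, 0.84 for Jun and 0.86 for Ier2. Without the 2 mice farthest from the median of the microglial score, E5248 and E5568, r was 0.60 for Junb, 0.35 for Jun and 0.54 for Ier2, so these relations rest in good part on those mice. For the 5 endothelial markers r was 0.76 for Junb, 0.83 for Jun and 0.68 for Ier2, and rho was 0.93, 0.88 and 0.88 (adjusted p = 0.116 for each rho and 0.191, 0.112 and 0.281 for r, exact permutation test). Without E5231 and E5568, the mice farthest from the median of that score, r was 0.83, 0.74 and 0.87. For the 5 astrocyte markers r was 0.78 for Junb and for Jun and 0.83 for Ier2 (adjusted p = 0.156, 0.191 and 0.112, exact permutation test), and 0.45, 0.21 and 0.73 without E5248 and E5568. Egr1 had the highest r of the 10 genes with these markers, 0.84, and a rho of 0.88 (adjusted p = 0.112 and 0.116, exact permutation test). Without the same E5248 and E5568 its r was 0.52. The summed CPM of the microglial markers was 801 in E5248 and 861 in E5568 but 1110 in E1776 and 1158 in E5231, with the controls between 975 and 1089. The summed CPM of 8 neuron markers ran the other way, from 2425 in E5231 to 3562 in E5248. E5231, the mouse with the most Jun, Junb and Ier2, thus had the most RNA of these microglial markers and the least of these neuron markers. E5248, with the least of all 3 genes, had the reverse. Motor neuron markers did not run this way. The summed CPM of 6 of them was 125 in E5231 and 110 in E5248, and ranged from 90.6 in E5568 to 157 in E6578.

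Arc was lowest where glucocorticoid-responsive genes and Schwann cell markers were highest. Its r with the 13 glucocorticoid-responsive genes was -0.84 and its rho -0.90 (exact permutation test, p = 0.0195 and 0.00456, adjusted p = 0.156 and 0.116), and r was -0.67 without E5386 and E5642, the mice farthest from the median of the score. The score was lowest in the control E5386 (-1.08) and highest in the control E5642 (1.03), which were the highest and lowest mice for Arc. With the 4 Schwann cell markers r was -0.75 and rho -0.74 (exact permutation test, p = 0.0129 and 0.0458, adjusted p = 0.129 and 0.244), and r was -0.47 without the same E5386 and E5642, whose scores were again the lowest (-2.08) and the highest (0.97). Fosb, the gene in which E1776 stood out, had r = 0.91 and rho = 0.86 with 9 heat shock genes (exact permutation test, p = 0.00355 and 0.0107, adjusted p = 0.112 and 0.143), and 0.72 without E1776 and E5248, the mice farthest from the median. E1776 also had the highest heat shock score of the 8 mice (1.28). Fos had r = -0.76 and rho = -0.74 with the clock genes (exact permutation test, p = 0.029 and 0.0458, adjusted p = 0.191 and 0.244), but -0.29 without E5568 and E6578, so that this relation rests on those mice. With the 8 neuron markers Fos had r = -0.70 and rho = -0.74 (exact permutation test, p = 0.0516 and 0.0458, adjusted p = 0.275 and 0.244). That r was -0.81 without E5231 and E5248, the mice farthest from the median. For Junb and Ier2, r with these markers was -0.67 and -0.66, but -0.14 and -0.16 without the same mice.

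No gene in a list of other rapid-response genes was called with all 8 mice, though most lay below 0. Of 37 further immediate early and rapid-response genes, all tested, 0 had an adjusted p under 0.05 in the exact test. An unadjusted one under 0.05 was seen in 2, Klf6 and Ptgs2, both lower in Ager-deleted mice, as for 3.06% of all genes. The median log2 fold change over the 37 was -0.09, against 0.0069 over all genes. Of the 37, 28 were below 0, as were 9348 of all 19470 genes. The 28 became 26 with library size as the only scaling. Without the controls that held muscle RNA there were 29, whereas 5 of the 10 genes were then below 0. Klf6, a zinc finger transcription factor, was at 57.0 ± 2.47 CPM (SD, n = 4) with Ager deleted and at 68.6 ± 8.68 CPM (SD, n = 4) in controls, with a log2 fold change of -0.27 (adjusted p = 0.843, exact test). Ptgs2, which encodes the prostaglandin synthase COX-2, was at 1.30, 1.54, 1.69 and 1.16 CPM in E1776, E5231, E5248 and E5568, against 1.94, 2.47, 1.92 and 1.95 CPM in E5386, E5642, E6578 and E6732. All 4 controls lay above all Ager-deleted mice (log2 fold change -0.54, standard error 0.17, adjusted p = 0.765 in the exact test). Over all genes, 3.88% had no overlap, in either direction. With E5386 and E5642 left out, Ptgs2 was at -0.45 and Klf6 at -0.32 (exact test, p = 0.0906 and 0.00288). Without the controls that held muscle RNA, 1 of the 37, Ccn2, was called (adjusted p = 0.0269, exact test) at a log2 fold change of -0.91. That test left only E6578 and E6732 as controls, at 26.5 and 26.6 CPM, against 10.2 to 20.2 CPM with Ager deleted. Ccn2 was at 6.02 CPM in E5386 and 20.3 CPM in E5642. With all 8 mice its log2 fold change was -0.48 and its p in the exact test 0.217. Summed meningeal fibroblast markers were also higher in E6578 and E6732 (382 and 482 CPM) than in Ager-deleted mice (160 to 325 CPM). Their part in the call was not tested.

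Delayed neuronal activity genes did not move in 1 direction. Of 12 such genes, among them Bdnf, Homer1 and Nptx2, 0 had an adjusted or an unadjusted p under 0.05 in the exact test, 6 were above 0 and 6 below, and the median log2 fold change was 0.0076. The largest difference was that of Inhba, an activin subunit, at 15.9 ± 2.69 CPM (SD, n = 4) with Ager deleted and at 18.5 ± 3.16 CPM (SD, n = 4) in controls, with a log2 fold change of -0.21 (adjusted p = 1, exact test).

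Among 18 transcription factors and cofactors that act on immediate early promoters, 0 had an adjusted p under 0.05 in the exact test. An unadjusted one under 0.05 was seen in 3, all lower in Ager-deleted mice, as for 3.06% of all genes. The median log2 fold change of the list was 0.02. Mef2a and Mef2c, activity-dependent MADS-box factors, had log2 fold changes of -0.21 and -0.23, and Nab1, a co-repressor that binds Egr proteins, one of -0.19. In all 3 the 4 controls lay above the 4 Ager-deleted mice. Over all genes, 3.88% had no overlap, in either direction. Mef2c is also expressed in microglia and muscle, and the part of those cells was not tested. Without the controls E5386 and E5642, Mef2c was at -0.20 and Nab1 at -0.23 (exact test, p = 0.109 and 0.0623). Mef2a was then at -0.27 (exact test, p = 0.0155). Among 13 MAP kinases and kinases next to them, 0 had an adjusted p under 0.05 in the exact test. Against 4.26% of all genes, 1 had an unadjusted one under 0.05. This was Rps6ka3, the kinase RSK2, with means of 51.4 ± 3.29 CPM (SD, n = 4) against 60.2 ± 4.02 CPM (SD, n = 4) in controls, without overlap (log2 fold change -0.23, adjusted p = 0.894 in the exact test). With E5386 and E5642 left out, Rps6ka3 was at -0.19 (exact test, p = 0.107).

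Glucocorticoid-responsive and clock genes were not separated by genotype, whereas 2 heat shock genes had no overlap. Of 13 glucocorticoid-responsive genes and 10 clock genes, 0 had an adjusted or unadjusted p under 0.05 in the exact test. The largest differences were those of Plin4, a lipid droplet protein, at a log2 fold change of -0.75 (standard error 0.59), and of Nr1d1, a clock repressor, at 0.24 (standard error 0.26). Without the controls that held muscle RNA, Nr1d1 was at -0.16, and the clock genes above 0 fell from 8 of 10 to 3 of 10. Of 9 heat shock genes, 0 had an adjusted p under 0.05 in the exact test and 2 an unadjusted one, Dnajb1 and Hspa5, both higher in Ager-deleted mice. Of all 19470 genes, 234 had an unadjusted p under 0.05 in that direction, and 3.88% had no overlap in either. Dnajb1, a co-chaperone of Hsp70, was at 53.3 ± 5.82 CPM (SD, n = 4) with Ager deleted and at 44.2 ± 2.56 CPM (SD, n = 4) in controls, without overlap. Its log2 fold change was 0.27 (adjusted p = 0.764, exact test). Hspa5, a chaperone of the endoplasmic reticulum, had a log2 fold change of 0.18. Hspa8, the constitutive Hsp70, had one of 0.12 with no overlap between the genotypes, though its p in the exact test was 0.183. Hspa1a and Hspa1b overlapped, at 0.26 and 0.40 (exact test, p = 0.352 and 0.311), and Hspb1 was lower in Ager-deleted mice, at -0.26. The median of the list was 0.12, with 8 of 9 genes above 0, as were 10122 of all 19470 genes. Without the controls that held muscle RNA, the median was 0.17, with 7 of 9 above 0. Dnajb1 then had p = 0.0168, Hspa5 p = 0.0748 and Hspa8 p = 0.452 in the exact test.

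A few genes outside these lists closely followed the mean of the 10, though not each of the 10. Over the 8 mice, the mean of the z-scores of the 10 genes was highest in E1776 (0.70) and E5386 (0.62) and lowest in E5248 (-0.82) and E5568 (-0.56). Among 12712 other genes with a mean of at least 5 CPM, the 5 with the highest Pearson r with that mean were Ch25h (0.98), Sox21 (0.98), Myo10 (0.96), Mmp19 (0.95) and Gpr19 (0.95), each with rho = 0.98. They were picked for this likeness over 8 mice from many genes, so the values are a description without a test. Ch25h, the enzyme that makes 25-hydroxycholesterol in activated macrophages, ranged from 6.69 CPM in E5248 to 13.8 CPM in E5386. Mmp19, a matrix metalloproteinase, ranged from 11.4 CPM in E5248 to 17.6 CPM in E1776.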

How the data were processed

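RNA-seq counts from whole lumbar spinal cord of 8 male mice, 4 per genotype, were analysed, with groups taken from the sample titles. The authors trimmed reads (Trimmomatic 0.36), aligned them to mm10 (STAR 2.7.3a), summed read pairs per gene of GENCODE M25 with featureCounts (Subread 1.6.3), and deposited raw counts per gene. The deposited log2 table holds TMM-normalized log2 CPM by the authors and served only as a check, recomputed here to within 4.78e-06 for all 19470 genes. The authors' RNA integrity numbers were 7.9 to 8.7. Total counts per mouse ranged from 31148047 to 40324897, and nothing in the labels gives a batch. Mice are separate animals, and their numbers pair none of them.

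Genes were filtered with filterByExpr (minimum 10 counts), TMM-normalized and tested with exactTest after estimateDisp in edgeR 4.0.16 (R 4.3.3), with Benjamini-Hochberg adjustment over all 19470 genes and a threshold of 0.05. The exact test was taken from the study's methods. Standard errors and 95% intervals are from edgeR's quasi-likelihood test, and DESeq2 1.42.0 was run beside it. Single values were compared on log2(CPM + 1) by exact permutation, and pairs of genes by exact permutation of the 8 mice with adjustment over all pairs of a family. Tests were tried on simulated data. The relations between genes across mice and their alternatives were chosen after seeing the data. Positions, exon lengths and overlaps are from GENCODE M21 on GRCm38, an earlier release than M25, and promoters from RefSeq on GRCm38.p6.

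The 10 genes and all lists were chosen with earlier results of these data known. Named genes were the 10, Ager, the highest muscle and liver marker, in each list the genes with an unadjusted p under 0.05 or without overlap (otherwise the one with the largest difference), and the 5 genes most alike over the mice. Bdnf, Homer1, Nptx2, Ccn2, Acta1, Hspa1a, Hspa1b, Hspb1 and the overlapping genes were named outside this rule. P-values judge differences and correlations by the variation between these 8 mice, whose litters are not given in the sources used here. Counting error is Poisson.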

Additional observations from a re-analysis of the deposited data

Results flagged for a closer look

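In Ager-deleted mice, Npas4 was at 4.04 CPM in E5248 and between 3.08 and 3.18 CPM in the other 3, a gap of 0.891 of the range of the 4 mice, which exceeds Dixon's limit for 4 values. It was the only one of 20 groups of 4 mice (10 genes in each genotype) to do so, where chance flags about 1 in 20. Without E5248 the log2 fold change of Npas4 was -0.08 (exact test, p = 0.72).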

How the results depend on the processing

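In each of 16 alternatives (another normalization, filter, test or dispersion estimate, each mouse omitted once, and both controls with skeletal muscle transcripts left out), 0 of the 10 genes were called, and the lowest adjusted p of any of them was 0.657, for Egr1 in DESeq2. Egr1 and Dusp1 stayed below 0 throughout, with unadjusted p-values from 0.00784 to 0.292 for Egr1 and from 0.0144 to 0.209 for Dusp1, and Jun stayed below 0 too. When single mice were left out, the other log2 fold changes crossed 0, from -0.18 to 0.0074 for Fos, -0.040 to 0.23 for Fosb, -0.10 to 0.20 for Junb, -0.10 to 0.076 for Nr4a1, -0.077 to 0.12 for Npas4, -0.14 to 0.077 for Arc and -0.24 to 0.055 for Ier2. An unadjusted p under 0.05 was kept in 9 of the 16 by Egr1 and in 11 by Dusp1. Without the controls with muscle transcripts, Fos was at 0.017, Nr4a1 at 0.15 and Nr1d1 at -0.16, and with library size only Nr4a1 was at 0.021. That scaling moved the median of all genes from 0.0069 to 0.032.

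The count of all genes called was 14, and it was 5 with a minimum of 50 counts, 1 in the quasi-likelihood test, 25 in DESeq2, 78 with common and tagwise dispersions, 67 without the controls with muscle transcripts, and 3 to 98 with 1 mouse left out. The cause was not tested. The correlation of Junb and Ier2 was between 0.80 and 0.96 with each mouse left out, lowest without E5248, and that of Jun and Junb between 0.83 and 0.95. The order of mice moved by less than its spread with a pseudocount of 0.25 CPM and with each mouse left out. No paired analysis was possible because the mice carry no shared replicate numbers.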
